A study of Mus musculus with 9 samples.

Results

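Axon guidance genes encode the cues and receptors that steer growing axons and migrating cells, and 63 of them were followed here through cultures of neural stem cells (NSC) and of glioma stem cells. They were chosen by gene symbol alone, as the Eph receptors and ephrins, the semaphorins of classes 3 to 7, the plexins and neuropilins, the Slit ligands and Robo receptors, and the netrins. The 63 genes were among 18193 genes that had a probe set with 1 gene symbol. By role they were 28 receptors and 35 ligands. A further gene that matches the rule, Ephb2, had no probe set with 1 symbol and was not analysed here. Each gene was represented by its brightest probe set. Of the 63, 28 were among the 9097 brighter genes, those whose mean log2 signal was at least the median over genes, 9.27.

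Ephrins are membrane-bound ligands that signal to Eph receptor tyrosine kinases on a neighbouring cell, and the contact commonly repels or sorts cells. Semaphorins act through plexins, and the secreted class 3 semaphorins mostly need a neuropilin as co-receptor. Slit proteins repel through Robo receptors, and netrins attract or repel through Dcc and Unc5 receptors. In the embryonic brain these systems guide axons, including those of the optic nerve, and in neural progenitors and gliomas they are known for effects on migration and cell positioning.

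The 9 samples formed 3 groups of 3 arrays, all from C57BL/6 mice and all grown in low-attachment dishes in the presence of FGF and EGF, each at 20 ng/ml. Wild-type NSC were cells of the third ventricle (TVZ) of postnatal day 1 Nf1flox/flox pups that had received a control LacZ virus, so the control cells carried the floxed alleles too. Nf1-null NSC were the same kind of cell after infection with a Cre virus, and Cre cuts out the floxed part of Nf1, whose product neurofibromin inhibits Ras. Glioma stem cells were grown from optic gliomas of 3-month-old mice with the genotype Nf1+/-GFAP CKO, a name that stands for a conditional knockout in cells with GFAP promoter activity on an Nf1 heterozygous background. The host tissue of these tumours also held cells without the knockout. Glioma stem cells and NSC therefore differed in tumour origin, age, tissue, virus and genotype at once, and these cannot be told apart. The series design speaks of 3 independent NSC cultures and is silent on whether separate tumours gave rise to the glioma stem cell arrays, so p-values measure only the spread between these arrays. The number of arrays limited the precision. The groups are called wild-type, Nf1-null and glioma cells in what follows.

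Nf1 signal was 1140, 920 and 1000 on the wild-type cells arrays, 430, 646 and 577 on the Nf1-null arrays, and 623, 600 and 549 on the glioma arrays, so that both other groups lay below every wild-type array. The position of its probe set relative to the floxed part was not looked up. Across the 9097 brighter genes, r was 0.989 between glioma arrays 2 and 3, and 0.950 and 0.944 between array 1 and each of these. Within the other groups the values were 0.951 to 0.964 (wild-type) and 0.938 to 0.954 (Nf1-null), below the value for arrays 2 and 3. Sex genes also differed between arrays: Xist was 588 and 386 on the NSC arrays numbered 3 and 30974.5 or more on the other 7, and the Y-linked Kdm5d was 47.7 on glioma array 2 and 540 or more on the others. Summed signal of 10 of 10 neural stem or progenitor markers lay between 244400 and 342560 on every array, a sum carried mostly by Fabp7, Vim and Sox2. In glioma against wild-type cells Msi1, Sox9 and Slc1a3 fell (2.18-, 2.59- and 2.21-fold) and Hes1 rose (1.84-fold). Without overlap but without passing, Nes and Vim were 2.79- and 1.22-fold higher and Sox2 1.38-fold lower (adjusted p = 0.0558, 0.432 and 0.137). Astrocyte markers, 7 of 7, summed to 186970 to 233950 in wild-type, 79303 to 155360 in Nf1-null and 81916 to 100650 in glioma cells. In glioma cells Aqp4, Aldh1l1 and Gja1 fell against wild-type cells. The same genes also fell against Nf1-null cells, 33.3-, 90.7- and 5.46-fold (adjusted p = 0.0205, 0.00241 and 0.0346). S100b of the same list was 17468 to 34246 in glioma and 4451 to 11308 in wild-type cells, without passing (adjusted p = 0.0656). Gfap of that list was 23.7-fold lower in glioma than in wild-type cells without overlap, and did not pass either (adjusted p = 0.0601). The sum over 6 of 6 neuronal markers was 4006 to 6392, 2058 to 2510 and 2956 to 4492, and Rbfox3 and Snap25 fell against wild-type cells. Tubb3 was 2.21-fold higher in glioma than in wild-type cells without passing (adjusted p = 0.0787), and rose 4.36-fold against Nf1-null cells (adjusted p = 0.0344). Oligodendrocyte precursor markers, 7 of 7, summed to 125270 to 136550, 85652 to 107060 and 122490 to 135720, sums carried mostly by Olig1 and Olig2. In Nf1-null against wild-type cells all 7 were lower and none passed. Without overlap there, Gpr17, Pdgfra, Pcdh15 and Sox10 were 55.6-, 7.29-, 4.23- and 3.59-fold lower (adjusted p = 0.174, 0.187, 0.164 and 0.231). Cspg4, Olig1 and Olig2 overlapped. Single markers of this list differed between glioma and wild-type cells without overlap, but none passed. Gpr17 was 15.2-fold lower (adjusted p = 0.163), and Olig2, Cspg4 and Pcdh15 were 1.45-, 2.45- and 2.85-fold higher. Against Nf1-null cells Pcdh15 rose 12.1-fold (adjusted p = 0.0281). Mature oligodendrocyte markers, 5 of 6 measured, summed to 41677 to 62722, 19743 to 43990 and 26696 to 92051 and none passed. Of these, Mbp was 495 to 6599 in wild-type and 189 to 376 in Nf1-null cells, and 2601, 29057 and 65239 on the glioma arrays. Single microglial and endothelial markers did not exceed 372 and 414 on any array, and no listed marker was at 0 on an array. The part of these shifts in the results below was not tested.

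Between glioma cells and wild-type cells, 12 of the 63 guidance genes changed, 9 down and 3 up, and 7 of the 9 that fell were receptors. A gene counts as changed at an adjusted p under 0.05 from limma, a linear model fitted to log2(signal + 1) of all 18193 genes, with Benjamini-Hochberg adjustment over all of them. That is 19.0% of the members, against 9.06% of all genes. Among all genes 3.46% rose and 5.6% fell. By role, 7 of 28 receptors fell and 1 rose, whereas 2 of 35 ligands fell and 2 rose. The roles also differed in brightness, with 15 of 28 receptors and 13 of 35 ligands among the brighter genes. With the brighter genes alone, 27.2% of them were called, and so were 14 of the 28 brighter members. The difference between the roles was not tested. The median log2 difference was -0.65 over the receptors and 0.02 over the ligands, and -0.09 over all genes. Judged by the raw signals, 6 members were higher and 15 lower with no overlap between the groups, as were 13.9% and 20.9% of all genes. In a bulk culture, fewer cells of a type and less RNA per cell cannot be told apart. How far the 12 calls depended on single arrays is given after the families.

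**Figure D1:**
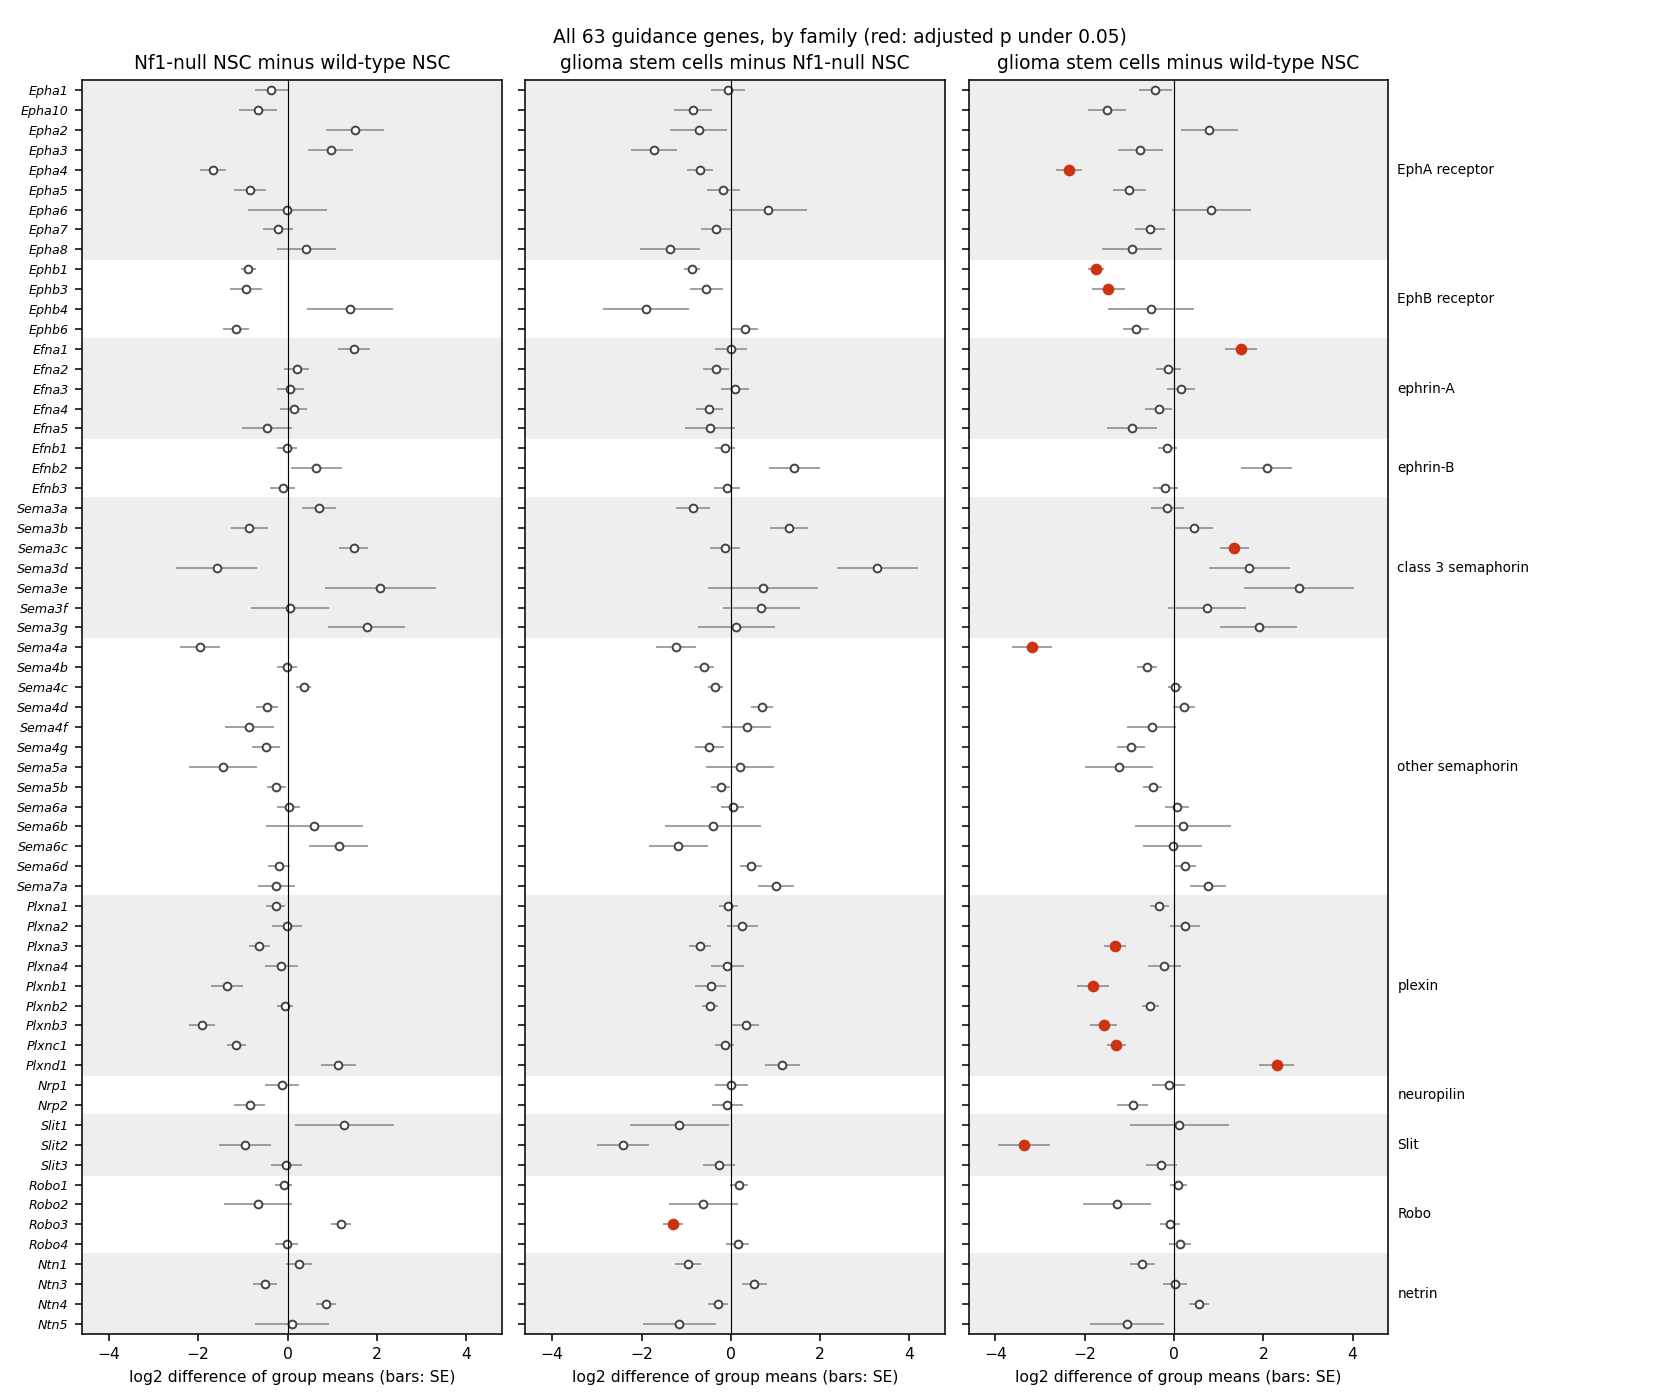
Log2 difference of group means (points) with its standard error (bars) for each of the 63 guidance genes, ordered by family, in the 3 comparisons (the panel titles give the groups in full). Filled red points mark an adjusted p under 0.05, of which there were 0, 1 and 12 from left to right, and 4 of 9 plexins lie to the left of 0 as filled points in the right panel against 1 to the right.

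The calls least dependent on any single array were those of 2 Eph receptors, Epha4 and Ephb1. Epha4, an EphA receptor that binds ephrins of both classes, had signals of 1793, 1948 and 2495 in wild-type cells, 626, 603 and 707 in Nf1-null cells, and 614, 371 and 279 in glioma cells. Every wild-type array was thus above every array of the other groups. In glioma cells it fell 5.14-fold against wild-type cells (log2 difference -2.36, SE 0.29, adjusted p = 0.00961). Ephb1, a receptor for B-type ephrins with a known part in guiding retinal axons at the optic chiasm, had signals of 3296, 4381 and 3217 in wild-type cells, 1887, 1994 and 1998 in Nf1-null cells, and 1198, 919 and 1104 in glioma cells. Its 3 groups formed 3 separate steps without overlap. It fell 3.37-fold (log2 difference -1.75, SE 0.18, adjusted p = 0.00674). Ephb3, a second B-type receptor, had 3119, 2752 and 1206 in wild-type cells, 1090, 1208 and 1136 in Nf1-null cells, and 1047, 656 and 698 in glioma cells. Its wild-type array 3 lay level with the Nf1-null arrays, and the 2.78-fold fall in glioma cells was near the threshold (log2 difference -1.48, SE 0.37, adjusted p = 0.0484). Epha5, the brightest EphA receptor, had 4090, 6273 and 3747 in wild-type cells, 2120, 2749 and 2880 in Nf1-null cells, and 3942, 1776 and 1702 in glioma cells. Glioma array 1 was level with wild-type cells while arrays 2 and 3 were below both NSC groups, and the difference did not pass (adjusted p = 0.129). Without that array Epha5 was called lower, 2.63-fold (adjusted p = 0.0275). The other 9 Eph receptors did not pass in any comparison, and 7 of 9 EphA and 4 of 4 EphB receptors had a negative log2 difference in glioma cells against wild-type cells.

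The sequences just upstream of the starts of Epha4 and Ephb1 are shown because these were the members whose fall was called whichever array was left out. They are the 250 bases before the annotated start, 5' to 3' on the gene's strand, from RefSeq with the build GRCm38.p6, at chr1:77515089-77515338 and chr9:102354694-102354943, both on the minus strand. Capitals mark the GC box, GGGCGG on either strand, a common promoter element bound by Sp1-family factors.
Epha4: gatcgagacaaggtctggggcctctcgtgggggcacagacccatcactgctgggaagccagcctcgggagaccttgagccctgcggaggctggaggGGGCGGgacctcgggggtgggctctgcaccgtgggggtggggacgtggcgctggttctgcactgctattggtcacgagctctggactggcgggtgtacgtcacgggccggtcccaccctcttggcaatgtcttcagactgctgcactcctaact
Ephb1: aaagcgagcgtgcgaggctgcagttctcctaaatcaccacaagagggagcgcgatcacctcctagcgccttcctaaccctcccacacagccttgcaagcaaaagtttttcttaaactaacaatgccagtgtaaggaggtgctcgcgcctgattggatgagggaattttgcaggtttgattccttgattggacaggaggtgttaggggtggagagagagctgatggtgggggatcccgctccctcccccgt
The Epha4 window held 1 GC box and the Ephb1 window 0. Of 55 members with a window, 42 held a GC box, and so did 10 of the 12 members called. The share was 53.4% over all tested genes with a window and 32.7% over all 32851 windows. Of other motifs searched on both strands, AP-1 (TGANTCA) was in 0 of the 12 windows, the ETS motif CCGGAAG in 1, the E-box CAGCTG in 2 and TATAAA in 1, against 6.70%, 11.8%, 14.9% and 10.5% of tested genes with a window. A match is a run of letters only, and no signal on these arrays bears on factor binding.

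Plexins were the family with the highest share of calls, 5 of 9, in the fit that called 9.06% of all genes. Of the 9, 8 were among the brighter genes. When the brighter genes alone were tested, 27.2% of them were called between glioma cells and wild-type cells. The plexins called in that test were Plxna3, Plxnb1, Plxnb2, Plxnb3, Plxnc1 and Plxnd1. Plxnb1, a receptor of the class 4 semaphorins, had signals of 5547, 6998 and 4333 in wild-type cells, 2806, 1436 and 2451 in Nf1-null cells, and 2334, 1360 and 1208 in glioma cells. Wild-type cells lay above both other groups, which overlapped each other. It fell 3.53-fold in glioma cells (log2 difference -1.82, SE 0.35, adjusted p = 0.0269). Plxnb3, a receptor of Sema5a, had 3410, 5918 and 5475 in wild-type cells, 1176, 1055 and 1652 in Nf1-null cells, and 1627, 1230 and 2078 in glioma cells. Wild-type cells again lay above both other groups, which overlapped, and the fall was 2.98-fold (log2 difference -1.58, SE 0.30, adjusted p = 0.0256). Plxnc1, the receptor of the membrane-anchored Sema7a, had 4328, 5322 and 3556 in wild-type cells, 1898, 1599 and 2449 in Nf1-null cells, and 1746, 1758 and 1818 in glioma cells. The glioma arrays lay within the range of the Nf1-null arrays, and the fall against wild-type cells was 2.45-fold (log2 difference -1.29, SE 0.21, adjusted p = 0.0187). Plxna3, which transmits class 3 semaphorin signals together with neuropilins, had 1831, 2000 and 1465 in wild-type cells, 870, 1307 and 1271 in Nf1-null cells, and 874, 695 and 567 in glioma cells. It fell 2.50-fold (log2 difference -1.32, SE 0.24, adjusted p = 0.0235).

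Plxnd1, the receptor of Sema3e, was the plexin that rose. Its signals were 424, 406 and 410 in wild-type cells, 798, 1338 and 710 in Nf1-null cells, and 1127, 2510 and 2969 in glioma cells. The lowest Nf1-null array lay above the highest wild-type array, and glioma arrays 2 and 3 were above all others while array 1 lay within the Nf1-null range. The rise against wild-type cells was 4.91-fold (log2 difference 2.30, SE 0.39, adjusted p = 0.0199). Plxnb2, also a receptor of class 4 semaphorins, was 4558, 4688 and 3896 in wild-type cells, 4239, 4038 and 4237 in Nf1-null cells, and 3599, 3169 and 2434 in glioma cells. The glioma arrays lay below all NSC arrays, but the 1.44-fold difference from wild-type cells did not pass (adjusted p = 0.112). Neither neuropilin passed in a comparison: Nrp1 was 5154 ± 1020, 4681 ± 661 and 5092 ± 2240 (SD, n = 3) in wild-type cells, Nf1-null cells and glioma cells. Nrp2 was 1041 ± 363, 591 ± 249 and 527 ± 20.3 (SD, n = 3) in the same order, with the glioma arrays below every wild-type array (adjusted p = 0.145).

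**Figure D2:**
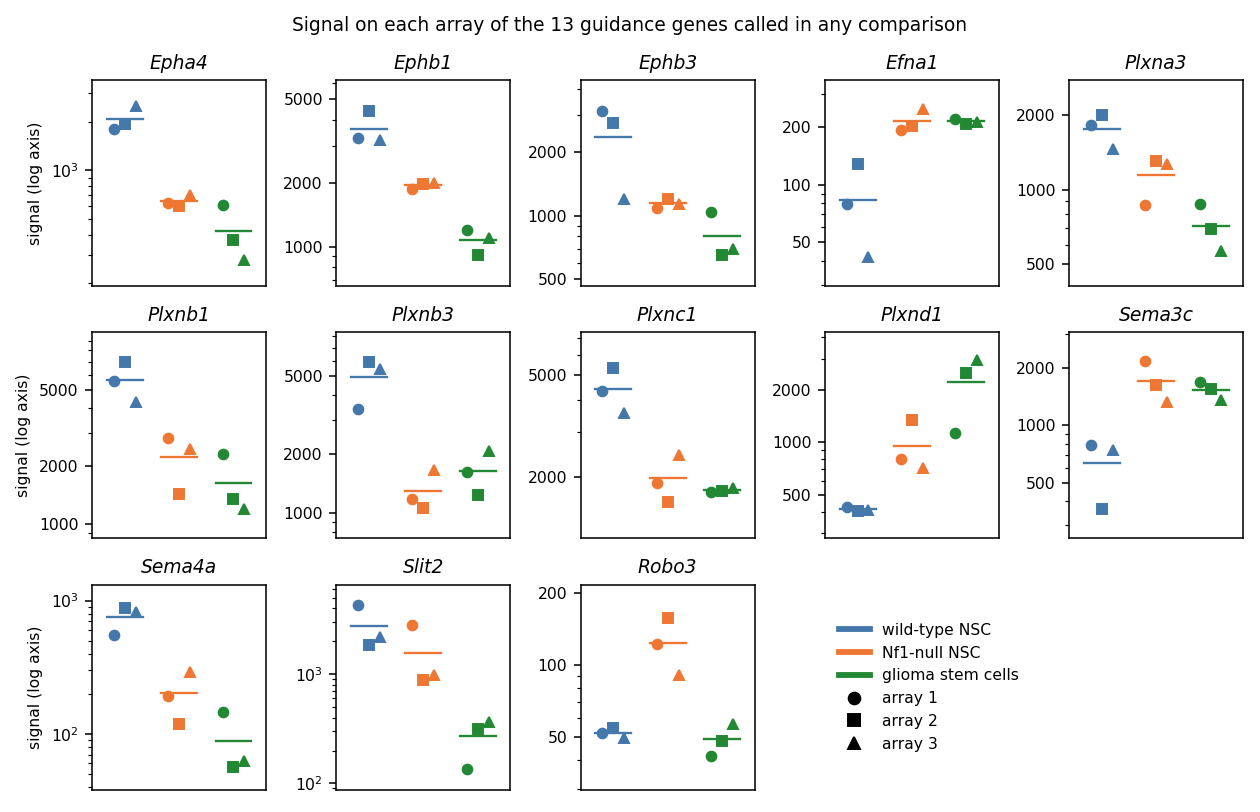
Signal on each of the 9 arrays (log axis) for the 13 guidance genes called in any comparison; colours mark the 3 groups, shapes the array number and lines the group means. For Ephb1 the groups form 3 separate steps, for Plxnb3 and Plxnc1 Nf1-null cells and glioma cells share 1 low level, and Robo3 was high on the Nf1-null arrays and low on the others.

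The upstream windows of a plexin that fell and of the one that rose are set side by side because they moved in opposite directions. Plxnb1 lies on the plus strand, at chr9:109095186-109095435, and Plxnd1 on the minus strand, at chr6:115995006-115995255 (GRCm38.p6, RefSeq). Capitals again mark the GC box on either strand.
Plxnb1: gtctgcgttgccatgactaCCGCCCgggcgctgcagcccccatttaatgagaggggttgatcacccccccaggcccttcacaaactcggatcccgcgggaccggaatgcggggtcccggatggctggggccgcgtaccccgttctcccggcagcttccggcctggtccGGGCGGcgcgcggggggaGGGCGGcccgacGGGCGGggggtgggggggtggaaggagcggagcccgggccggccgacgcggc
Plxnd1: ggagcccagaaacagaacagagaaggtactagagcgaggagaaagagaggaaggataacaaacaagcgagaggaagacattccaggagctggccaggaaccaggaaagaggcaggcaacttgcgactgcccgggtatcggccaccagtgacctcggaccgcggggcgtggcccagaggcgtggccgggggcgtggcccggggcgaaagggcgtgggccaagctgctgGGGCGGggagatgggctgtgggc
The Plxnb1 window held 4 GC boxes with 75.2% G and C, and the Plxnd1 window 1 with 64.8%. Neither held an AP-1 or TATAAA run, and the Plxnb1 window held 1 ETS run.

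Among the Robo receptors, no member changed between glioma cells and wild-type cells. Robo1, the brightest of them and a receptor of Slit1, Slit2 and Slit3, was 8478 ± 817, 8067 ± 1668 and 9081 ± 1085 (SD, n = 3) in wild-type cells, Nf1-null cells and glioma cells, and its groups overlapped. Robo2 had 267, 246 and 407 in wild-type cells, 245, 129 and 211 in Nf1-null cells, and 417, 112 and 38.9 in glioma cells. Glioma array 1 was the highest of all 9 and array 3 the lowest, and without array 1 Robo2 was called lower against wild-type cells, 4.46-fold (adjusted p = 0.0477).

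Slit2, a secreted repellent that binds Robo receptors, had the largest fall of any member. Its signals were 4272, 1841 and 2197 in wild-type cells, 2784, 879 and 986 in Nf1-null cells, and 134, 315 and 366 in glioma cells. Every glioma array lay below every NSC array, while the NSC groups overlapped. It fell 10.3-fold against wild-type cells (log2 difference -3.37, SE 0.58, adjusted p = 0.0201). Slit1 was dim and scattered, with 282, 136 and 20.3 in wild-type cells, 133, 415 and 208 in Nf1-null cells, and 359, 50.7 and 55.9 in glioma cells. Slit3 did not exceed 21.0 on any array, and neither passed in a comparison. The lower Slit2 signal of glioma cells thus stood beside a Robo1 signal whose groups overlapped. The upstream window of Slit2 (chr5:47982905-47983154, plus strand, GRCm38.p6, RefSeq) is shown because of the size of this fall, and it was the window among the 12 that held a TATAAA run, which lies 3' of the 3 GC boxes marked in capitals.
Slit2: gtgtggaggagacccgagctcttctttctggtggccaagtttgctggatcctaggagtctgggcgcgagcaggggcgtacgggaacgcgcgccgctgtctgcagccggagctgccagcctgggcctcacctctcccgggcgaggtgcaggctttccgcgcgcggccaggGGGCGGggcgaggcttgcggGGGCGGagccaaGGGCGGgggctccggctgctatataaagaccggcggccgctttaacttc

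Of the 4 netrins none passed in a comparison. Ntn1, the classical chemoattractant of the ventral midline, was 9814, 13233 and 15028 in wild-type cells, 12155, 15603 and 17602 in Nf1-null cells, and 10970, 7074 and 5765 in glioma cells. The glioma arrays lay below every Nf1-null array and overlapped wild-type cells, and the 1.95-fold difference from Nf1-null cells had an adjusted p of 0.159. Ntn4, a secreted netrin of basement membranes, was 2675, 4410 and 3612 in wild-type cells, 5361, 6971 and 6719 in Nf1-null cells, and 5596, 5368 and 4535 in glioma cells. Both other groups lay above every wild-type array, 1.81-fold (adjusted p = 0.166) and 1.47-fold (adjusted p = 0.159).

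Of 8 ephrins, 1 changed. Efna1, a membrane-anchored ligand of EphA receptors, had signals of 79.4, 129 and 42.1 in wild-type cells, 193, 203 and 248 in Nf1-null cells, and 222, 209 and 214 in glioma cells. All arrays of the other groups lay above the wild-type arrays, and the rise in glioma cells was 2.82-fold (log2 difference 1.49, SE 0.36, adjusted p = 0.0449). Its other probe set was dim, lay between 8.7 and 96.8 on all arrays, and pointed the opposite way, and with the mean of both the log2 difference was 0.22 and was not called. Efnb2, a B-type ephrin of arteries and of neural progenitor niches, was 578 ± 146 in wild-type cells, 949 ± 405 in Nf1-null cells and 2793 ± 1578 in glioma cells (SD, n = 3). On the glioma arrays it was 995, 3947 and 3438, all above wild-type cells, and the 4.21-fold difference did not pass (adjusted p = 0.0647). Without glioma array 1 it was called 6.51-fold higher (adjusted p = 0.0156). Efnb1 was 1069 ± 166, 1077 ± 278 and 956 ± 13.4 (SD, n = 3), with overlapping groups.

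Of the 7 class 3 semaphorins, 6 had a positive log2 difference in glioma cells against wild-type cells, and 1 passed. The median was 1.35, against -0.09 over all genes. Only 2 of the 7 were among the brighter genes and 2 were higher without overlap, so the median rests largely on dim or scattered signals. Sema3c, a secreted semaphorin that can attract cortical axons, had 793, 365 and 738 in wild-type cells, 2162, 1636 and 1329 in Nf1-null cells, and 1689, 1556 and 1361 in glioma cells. Wild-type cells lay below all other arrays, the other groups overlapped each other, and the rise in glioma cells was 2.56-fold (log2 difference 1.35, SE 0.33, adjusted p = 0.0441). Sema3a, a repellent of the growth cone, was 2058 ± 245, 3453 ± 1066 and 2024 ± 1112 (SD, n = 3), higher on every Nf1-null array than on the wild-type arrays without passing (adjusted p = 0.396). Its dimmer probe sets were 1.35- and 3.56-fold higher in glioma than in wild-type cells, the latter without overlap (means 195 and 775). In Nf1-null cells all probe sets of Sema3a were higher than in wild-type cells without overlap, by 1.64-, 2.27- and 4.06-fold. Sema3d and Sema3e, named after their values were seen, were the most uneven. Sema3d had 241, 417 and 1482 in wild-type cells, 82.2, 199 and 330 in Nf1-null cells, and 583, 3106 and 2769 in glioma cells. Every glioma array was above every Nf1-null array, by 9.70-fold, without passing (adjusted p = 0.135). Sema3e, the ligand of Plxnd1, was 123, 1155 and 1350 on the glioma arrays and 13.9 to 451 on the NSC arrays, so that arrays 2 and 3 were above all NSC arrays and array 1 was not.

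Of the 13 other semaphorins, 1 changed. Sema4a, a membrane semaphorin also known for roles in immune cells and retina, had signals of 552, 886 and 824 in wild-type cells, 192, 120 and 292 in Nf1-null cells, and 145, 56.5 and 62.5 in glioma cells. Wild-type cells lay above all other arrays, and the fall in glioma cells was 9.12-fold (log2 difference -3.19, SE 0.45, adjusted p = 0.0128). Its probe set is of a type that can bind related transcripts, and so is that of Plxnb3. Sema6d, a transmembrane semaphorin and the brightest of the class, was 22970 ± 1224 in wild-type cells, 20191 ± 2921 in Nf1-null cells and 28299 ± 8302 in glioma cells (SD, n = 3), with overlapping groups. Sema7a, the ligand of Plxnc1, was 215 to 354 in wild-type cells and 243, 705 and 662 in glioma cells, and without array 1 it was called higher.

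The members not yet described did not pass in any comparison, and some are named here after their values were seen. Sema4b, a class 4 semaphorin, was 2614, 1599 and 2240 in wild-type cells, 2530, 2051 and 1769 in Nf1-null cells, and 1348, 1354 and 1427 in glioma cells. The glioma arrays lay close together below all NSC arrays, 1.53-fold under wild-type cells (adjusted p = 0.127). Ephb6, an Eph receptor without kinase activity, was 376, 826 and 437 in wild-type cells, 256, 192 and 247 in Nf1-null cells, and 276, 308 and 272 in glioma cells. Wild-type cells lay above both other groups (adjusted p = 0.164 for Nf1-null and 0.117 for glioma cells), and the glioma arrays lay above the Nf1-null arrays. Sema4g was 732, 1170 and 1161, then 638, 549 and 1027, and 675, 438 and 450 in the same order of groups, with the glioma arrays below the wild-type arrays (adjusted p = 0.101). Epha3, an EphA receptor, was 113, 162 and 165 in glioma cells against 246 to 776 in Nf1-null cells, a 3.30-fold difference (adjusted p = 0.154). Epha10, also without kinase activity, was dim throughout, at 31.4 to 103 in wild-type and 16.7 to 21.2 in glioma cells (adjusted p = 0.0693), and was called with a replicate block. Plxna1 and Plxna2, receptors of class 3 and class 6 semaphorins, kept overlapping groups in all 3 comparisons, with log2 differences of -0.33 and 0.25 between glioma and wild-type cells. So did the bright Sema6a, with 1510 to 2659, 1918 to 2786 and 2062 to 2506 in the 3 groups. Robo4, the Robo receptor known from endothelium, stayed between 111 and 205 on all arrays.

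Nf1-null and wild-type cells differed in Nf1 and in the virus they had received, Cre or LacZ, which cannot be told apart. No guidance gene passed, 0 of 63, and neither did any other gene (0%) by limma. At an unadjusted p under 0.05 there were 16 members, against 16.8% of all genes. Without overlap of the groups 8 members were higher and 12 lower, as were 9.75% and 14.1% of all genes. The count depended on which genes shared the test. With the 9097 brighter genes alone, 4.38% of them were called, and so were 6 of the 28 brighter members. These were Epha4 (3.19-fold lower, adjusted p = 0.0193), Ephb1 (1.83-fold lower, adjusted p = 0.0264), Plxnb3 (3.77-fold lower, adjusted p = 0.0147), Plxnc1 (2.23-fold lower, adjusted p = 0.0217), Sema3c (2.80-fold higher, adjusted p = 0.0336) and Ntn4 (1.81-fold higher, adjusted p = 0.0490). With a variance prior that follows the signal (a mean-variance trend), 5 of 63 were called, against 1.81% of all genes, which were the same genes without Ntn4. The NSC arrays of equal number deviated together, and a replicate block in the same 2 settings gave 7 of 28 members (11.9% of the brighter genes) and 8 of 63 (5.35% of all genes), adding Plxnb1 in both, and Ntn4 and Sema3d in the second. A replicate block alone gave 0. Of the genes called higher, Sema3c had a dimmer second probe set with overlapping groups and a log2 difference of -0.11. The dimmer second probe set of Ntn4 was 1.47-fold higher, also with overlap.

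Between glioma cells and Nf1-null cells, 1 of the 63 passed, against 1.75% of all genes, of which 0.671% were higher and 1.08% lower. That was Robo3, a receptor known from commissural axons that cross the midline. Its signals were 51.7, 54.5 and 49.5 in wild-type cells, 123, 157 and 90.5 in Nf1-null cells, and 41.4, 48.1 and 56.7 in glioma cells, so the Nf1-null arrays were above all others and those groups overlapped. It fell 2.46-fold (log2 difference -1.30, SE 0.22, adjusted p = 0.0396). Robo3 was dim, its other probe set was dimmer, and with the mean of both the fall was 1.67-fold and not called (adjusted p = 0.635). The call was lost in 8 of 9 fits without 1 array, the exception being the fit without Nf1-null array 3, and with a mean-variance trend (adjusted p = 0.145). With a replicate block Robo3 was not called either (adjusted p = 0.0767) and Sema3d was, as higher. By non-overlap 4 members were higher and 12 lower, as were 9.24% and 12.7% of all genes. Among the brighter genes, of which 6.67% were called, Ephb1 (1.83-fold, adjusted p = 0.0156) and Slit2 (5.36-fold, adjusted p = 0.0316) were called lower. Without glioma array 1, Efnb2 (4.15-fold, adjusted p = 0.0498), Plxnd1 (2.99-fold, adjusted p = 0.0370) and Sema7a were called higher instead. In that fit 3.96% of all genes were called. Without Nf1-null array 1 the call was Sema3b, and without wild-type array 1, 2 or 3, Nf1-null array 2, or glioma array 2 or 3 none remained.

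The 63 members had 142 probe sets, from 1 for 21 members to 6 at most. For 9 of the 12 genes called between glioma cells and wild-type cells there was at least 1 other probe set, and 16 of these 17 gave the same direction, the exception being that of Efna1. Of the 11 that were not among the dimmest 25% by the limit of 6.41 in mean log2 signal, 11 gave the same direction and 9 had no overlap between the groups. The sizes differed: the 4 brighter probe sets of Epha4 gave falls of 5.14-, 2.45-, 3.70- and 3.32-fold, and the probe sets of Plxnb1 gave 3.53- and 1.78-fold. For Plxnc1 they ranged from 1.21- to 2.90-fold and for Slit2 from 6.59- to 19.4-fold. When all probe sets of a gene were averaged, 8 of the 12 were called, without Efna1, Ephb3, Plxna3 and Plxnc1. Ephb1, Ephb3 and Plxnd1 had a single probe set each.

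**Figure D3:**
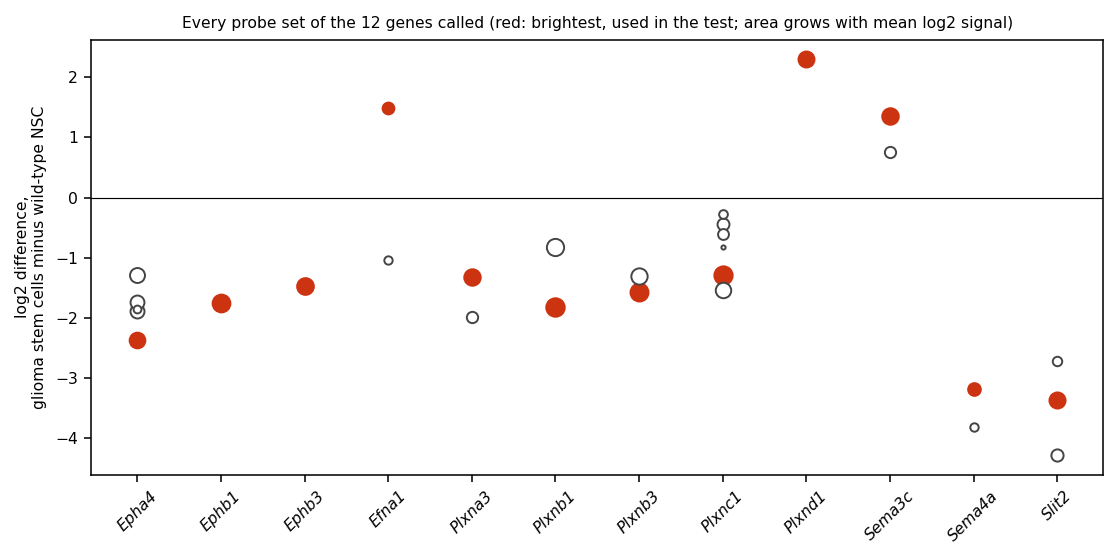
Log2 difference of glioma cells minus wild-type cells for every probe set of the 12 genes called in that comparison; the filled point is the brightest probe set, used in the test, and the area grows with mean log2 signal. All probe sets of a gene lie on 1 side of 0 except those of Efna1, where the dimmer one is negative.

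The calls between glioma cells and wild-type cells depended on the arrays to unequal degrees. Epha4 and Ephb1 were called in each of the 9 fits that left out 1 array, with log2 differences of -2.67 to -2.11 and -1.83 to -1.61. Plxnc1 and Sema4a were called in 6 of the 9, Plxna3, Plxnb3, Plxnd1 and Slit2 in 5, Plxnb1 in 4, Ephb3 in 2, Efna1 in 1 and Sema3c in 0. None of the 12 changed sign. The share of all genes called in each fit is given in brackets. Without glioma array 2 or 3, 2 members were called, Epha4 and Ephb1 (1.19% and 1.44%). There were 3 without wild-type array 2, those and Efna1 (1.18%). Without wild-type array 1 there were 7 (4.83%) and without array 3 there were 6 (2.52%). Leaving out any Nf1-null array, which enters only the shared spread, gave 9 (6.56% to 8.72%), without Efna1, Ephb3 and Sema3c. A replicate block gave 10 (8.44%), without Efna1, Ephb3 and Sema3c and with Epha10, which fell there. Without glioma array 1 there were 14 (9.65%), which lacked Efna1 and Sema3c and included Efnb2, Epha5, Robo2 and Sema7a. On that array 8 members lay more than 1 log2 unit below both other glioma arrays and 5 lay as far above.

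**Figure D4:**
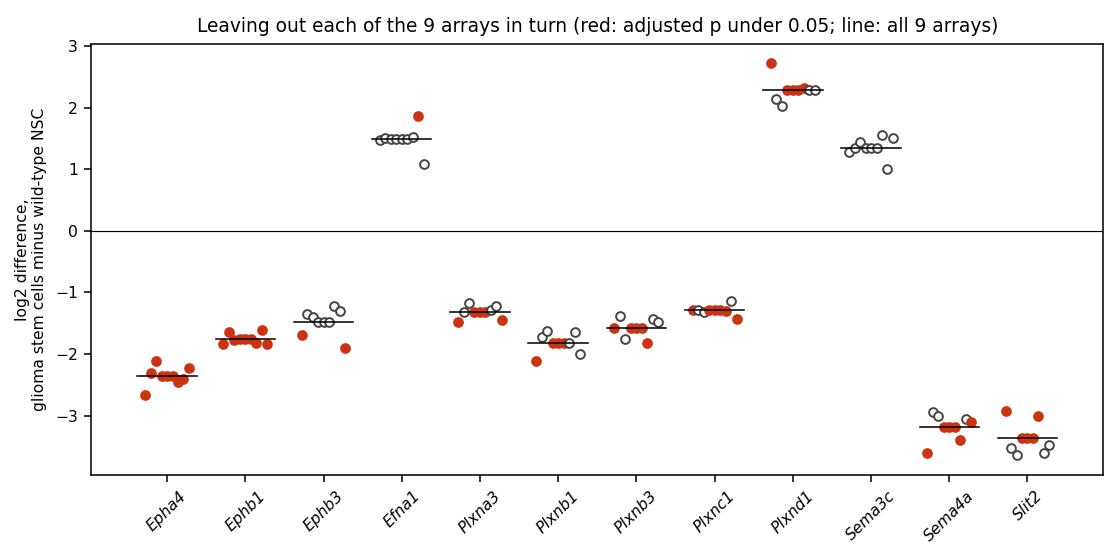
Log2 difference of glioma cells minus wild-type cells for the 12 genes called, with each of the 9 arrays left out in turn (points) and with all arrays (lines); filled red points mark an adjusted p under 0.05. Epha4 and Ephb1 are filled in 9 of 9 fits and Sema3c in 0, and no point crosses 0.

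Genes that work with these cues and receptors were followed from 2 further lists. Of 32 other ligands, receptors and co-receptors, 1 rose and 5 fell in glioma cells against wild-type cells, beside 3.46% and 5.6% of all genes. Neo1, a receptor of netrins and of Rgma, was 14993, 13035 and 13008 in wild-type cells, 6238, 5757 and 7397 in Nf1-null cells, and 6363, 6887 and 7154 in glioma cells, and fell 2.01-fold (adjusted p = 0.0156). Its ligand Rgma fell 3.88-fold (adjusted p = 0.0443). The repellent Draxin fell 16.7-fold (adjusted p = 0.0429), from 2160 to 5482 in wild-type cells to 1065, 178 and 56.9. The Unc5 ligand Flrt2 fell 3.58-fold and Lingo1, a partner in myelin inhibitor signalling, 2.54-fold. The netrin receptor Unc5b rose 3.15-fold (adjusted p = 0.0492), from 290, 222 and 483 to 653, 1247 and 1200. Against Nf1-null cells, where 1.75% of all genes were called and 0.671% rose, 2 of the 32 rose, Slitrk2 (2.66-fold, adjusted p = 0.0100) and Nfasc (7.27-fold, adjusted p = 0.0481).

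Of 52 cytoplasmic effectors, 49 were measured, and 10 fell and 1 rose between glioma cells and wild-type cells, beside 5.6% and 3.46% of all genes. The collapsin response mediators, which relay semaphorin signals to the cytoskeleton, fell in 3 of 5 cases: Dpysl3 (2.44-fold), Dpysl4 (3.18-fold) and Crmp1 (1.82-fold). The other two did not pass: Dpysl2 had a log2 difference of -0.05, and Dpysl5 was 1.55-fold higher without overlap (adjusted p = 0.0820). The flavin enzyme Mical1, which acts on actin downstream of plexins, was 1656, 1429 and 1321 in wild-type cells, 1524, 1314 and 1315 in Nf1-null cells, and 583, 418 and 332 in glioma cells. It fell 3.38-fold against wild-type cells (adjusted p = 0.00987) and 3.19-fold against Nf1-null cells (adjusted p = 0.0222), and was the effector that passed in the latter comparison. Mical3 fell as well (1.66-fold), as did the Slit-Robo GTPase activator Srgap3 (2.34-fold), the actin regulator Enah (2.06-fold), the kinase Limk2 (2.85-fold) and the exchange factors Kalrn (2.18-fold) and Ngef (3.67-fold), the latter coupled to EphA receptors. Dock1, a Rac activator in the Dcc pathway, rose 1.84-fold (adjusted p = 0.0195). The median log2 difference was -0.01 over the 32 genes and -0.05 over the 49, against -0.09 over all genes.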

How the data were processed

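Affymetrix mouse genome arrays were hybridised with material from 9 samples, starting from 100 ng of RNA, per the labels. The authors deposited 1 linear intensity per probe set and array, and the sources used here do not name the software behind it. With the extreme 2% of probe sets at either end set aside, each array had a mean signal of 1500, and medians lay between 264.7 and 287.4. Such scaling sets aside differences in total RNA. The platform annotation gave 1 symbol to 34945 of 45101 probe sets. The brightest probe set by mean log2(value + 1) stood for a gene.

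A single limma model (version 3.58.1, R 4.3.3) was fitted to all 9 arrays and estimated the 3 group means, with moderated variances without a trend, and tests were two-sided. Fold values are 2 to the power of a log2(value + 1) difference and understate changes of dim genes. The pseudocount was 1. Errors of differences are moderated standard errors. The model was also run on simulated arrays with independent noise. These lack the joint deviations seen between the real arrays, so the run says nothing on how such deviations affect the calls.

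Named with values were members past the threshold, brighter members without group overlap and at least 1 log2 unit apart, and the 2 brightest members of each family. Other members given with values were named after these were seen. Members, lists and tests were chosen with earlier results of these data known. Same-numbered NSC arrays deviated together across the brighter genes (correlations 0.64, 0.24 and 0.59) and less over all genes (0.13, 0.05 and 0.17). The labels do not state such a pairing. For glioma stem cells, which came from other mice, same-numbered correlations across the brighter genes were 0.30, 0.12 and 0.11 with Nf1-null NSC and 0.24, 0.05 and 0.20 with wild-type NSC, and 0.08 or less over all genes. Promoter windows came from RefSeq (GRCm38.p6), matched by symbol for 55 of 63 members.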

Additional observations from a re-analysis of the deposited data

How the results depend on the processing

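Scaling, probe set rule, filter, variance prior, pseudocount, block, threshold and each array in turn were varied. For Nf1-null against wild-type cells, 0 of 63 members became 6 of 28 with the 9097 brighter genes only, of which 4.38% were called. It was 3 of 54 without the dimmest 25% (0.997% of the genes kept) and 5 of 63 with a mean-variance trend (1.81%). At an adjusted p under 0.10 it was 4. With the replicate block it stayed 0. Together with the brighter genes or the trend the block gave 7 of 28 (11.9%) or 8 of 63 (5.35%). Without each array in turn it was 0. For glioma against Nf1-null cells, 1 became 2 with the brighter genes (6.67% of them called), the trend (4.05%) and an adjusted p under 0.10. It became 0 with the mean of all probe sets, the ordinary test or only the 6 arrays compared. The replicate block kept 1 (1.06% of all genes), another gene (Sema3d instead of Robo3). With the brighter genes or the trend the block gave 2 of 28 (10.4%) or 3 of 63 (6.23%). Without each array in turn the count ranged from 0 to 3, with 0.396% to 3.96% of all genes called. For glioma cells against wild-type cells, 12 became 2 to 14 without each array in turn, while 1.18% to 9.65% of all genes were called. In the other settings the count stayed within 1.5 times (8 to 18). The mean of all probe sets gave 8 of 63 (5.95% of all genes), and block with trend 18 of 63 (18.5%). With the brighter genes it was 14 of 28 (27.2% of them), and with the block added 16 of 28 (33.1%). The replicate block alone gave 10 of 63 (8.44%), lost Efna1, Ephb3 and Sema3c and added Epha10. Ephb3 was also lost under quantile normalization and under a shift of the arrays to the same median. Of the 12 calls, 181 of 248 refits kept the call and 67 lost it with the same sign. Dim signal limits several members, with standard errors of a difference up to 1.24 log2 units (Sema3e) against 0.18 for Ephb1. The cause of each dependence was not tested.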

Other observations

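The bright guidance genes varied more between arrays of 1 group than other bright genes did. The median over the 28 brighter members of the range between the 3 arrays of a group was 0.65 log2 units in wild-type cells, 0.56 in Nf1-null cells and 0.65 in glioma cells. Over all 9097 brighter genes it was 0.35, 0.43 and 0.35. The difference was not tested. Among dimmer members, 10 differed more than 4-fold between arrays of wild-type cells, 5 in Nf1-null cells and 11 in glioma cells. Sema5a, a transmembrane semaphorin, ran from 349 and 797 to 2148 across the wild-type arrays, and Sema3d from 241 and 417 to 1482, in both cases with array 3 highest. Gpr17, a marker of differentiating oligodendrocyte precursors, was 9900, 14302 and 30598 on the same arrays. Cspg4 and Pcdh15 of the precursor list were also highest on array 3. Pdgfra (13363, 13124 and 8946), Sox10 (3479, 2511 and 1352), Olig1 and Olig2 of that list were lowest on array 3. Xist was also low on wild-type array 3, at 588 against 36330 and 56641 on arrays 1 and 2. A relation to the precursor markers or to Xist was not tested.

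Glioma array 1 differed by more than 1 log2 unit from both other arrays of its group in 13 guidance genes. It was lower for Efnb2, Epha6, Nrp1, Plxnd1, Sema3d, Sema3e, Sema7a and Slit2 and higher for Epha5, Robo2, Sema3a, Sema4a and Slit1. Sema3e was 123 on it against 1155 and 1350, and its receptor Plxnd1 1127 against 2510 and 2969. Nrp1, which Sema3a needs, was 2531 against 6060 and 6685, while Sema3a itself was 3308 against 1367 and 1397.

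Dcc, the main attractive netrin receptor, was 3919, 3078 and 1467 in wild-type cells, 1344, 477 and 567 in Nf1-null cells, and 1369, 981 and 985 in glioma cells, and did not pass in a comparison. Every array of the other groups lay below every wild-type array for it, as it did for its relative Neo1.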
